A study of Mus musculus with 16 samples.

Results

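Caveolins and cavins are the coat proteins of caveolae, and their transcripts were examined here as a family of 8 genes: the caveolins Cav1, Cav2 and Cav3, the cavins Cavin1, Cavin2, Cavin3 and Cavin4, and Ehd2. The genes were taken by name from the deposited expression tables, where all 8 were present among 21011 genes in skeletal muscle and among 38933 genes in cortical bone. Cav3 and Cavin4 are the muscle-type members, and the other 6 are made in many cell types. The family was selected on the comparison of BAY-treated with VEH-treated mice, so its differences between treatments are given as a description. Counts of members past a threshold stand beside the share of all genes past it and support nothing about the family.

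The 16 bulk RNA-seq libraries came from female C57BL/6 mice that were 18 months old when treatment began, with 4 libraries in each of 4 groups. Mice received the AhR antagonist BAY2416964 (BAY) at 30 mg/kg by oral gavage on 5 days per week for 8 weeks, or vehicle (VEH). No group carried a transgene or a deletion. One tissue was a whole tibialis anterior muscle from each mouse, and the other was the cortical bone shaft, which had been digested with collagenase after marrow stromal cells were isolated. The values are CPM, read counts scaled to the library total, recovered from the deposited log2 values, and the 2 tissues were normalized separately. Library numbers name different mice in the VEH and BAY groups.

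Caveolae are small flask-shaped pits of the plasma membrane that buffer membrane tension and gather signalling proteins. Caveolin 1 and caveolin 2 form hetero-oligomers in endothelial cells, adipocytes, fibroblasts and smooth muscle, while caveolin 3 takes the place of caveolin 1 in striated muscle fibres. Cavin 1 is needed for caveola formation in all of these cells. Cavin 2 and cavin 3 join it in non-muscle cells and cavin 4 in muscle. EHD2 is an ATPase at the caveola neck that holds the pit at the surface. Loss of CAV3 or CAVIN1 causes muscle disease in people. AhR, the receptor that BAY blocks, binds DNA with its partner ARNT at a core motif written GCGTG.

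Cav1 and Cav3 share the caveolin signature in the form FEDVIAEP, a form that was not found in the Cav2 protein. This stretch shows how Cav1 and Cav3 can be told apart by reads although they encode identical residues there. The lines below give 48 bases of reference coding exon, with the 24 bases that encode the residues FEDVIAEP in capitals (GRCm39). In Cav1 the stretch lies in exon 3 of 3 and begins at residue 68, and in Cav3 it lies in exon 2 of 2 and begins at residue 41.
Cav1, chr6:17339112-17339159, plus strand: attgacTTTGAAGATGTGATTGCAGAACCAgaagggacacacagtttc
Cav3, chr6:112449098-112449145, plus strand: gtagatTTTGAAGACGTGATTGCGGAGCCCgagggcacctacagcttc
The 2 capitalised runs differed at 4 of 24 bases. Over the whole proteins, the 178 residues of caveolin 1 and the 151 of caveolin 3 were 64.2% identical over the aligned positions, against 38.4% for caveolin 1 and caveolin 2. The cavins were 31.0% (Cavin3 and Cavin4) to 46.0% (Cavin1 and Cavin2) identical. No pair within a family shared an exact run longer than 16 bases between its transcripts, so an ordinary sequencing read could not be split between members.

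The promoters of Cavin1, Cav3 and Ehd2 are printed because Cavin1 was the member with the most reads and stood apart between treatments in muscle, and because Cav3 and Ehd2 were the 2 members of 7 found in the table whose window held GCGTG. Each run covers 250 bases before to 50 after the start of transcription in RefSeq (GRCm38.p6), with GCGTG in capitals, or CACGC where it lies on the other strand.
Cavin1, chr11:100970566-100970865, minus strand: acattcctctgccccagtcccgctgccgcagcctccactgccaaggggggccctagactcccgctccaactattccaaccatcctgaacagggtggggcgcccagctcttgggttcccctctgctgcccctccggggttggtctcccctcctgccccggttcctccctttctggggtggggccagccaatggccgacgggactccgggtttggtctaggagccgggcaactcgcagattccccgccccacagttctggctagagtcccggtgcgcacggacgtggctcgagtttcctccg
Cav3, chr6:112459255-112459554, plus strand: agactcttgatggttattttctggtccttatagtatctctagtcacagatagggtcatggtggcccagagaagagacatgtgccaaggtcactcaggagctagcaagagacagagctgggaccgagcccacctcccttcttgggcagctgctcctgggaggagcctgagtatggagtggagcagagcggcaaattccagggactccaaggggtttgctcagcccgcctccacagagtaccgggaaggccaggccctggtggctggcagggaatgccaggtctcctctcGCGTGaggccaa
Ehd2, chr7:15967486-15967785, minus strand: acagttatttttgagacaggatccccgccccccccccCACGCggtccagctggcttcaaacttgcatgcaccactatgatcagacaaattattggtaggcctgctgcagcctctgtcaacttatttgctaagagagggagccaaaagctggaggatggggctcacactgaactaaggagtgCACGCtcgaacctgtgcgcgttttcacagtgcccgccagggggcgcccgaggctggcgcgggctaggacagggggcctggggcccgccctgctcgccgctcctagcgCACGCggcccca
GCGTG was searched on both strands and was found once in the Cav3 window, 3 times in the Ehd2 window and not in the other 5 genes. Of all 32851 promoter windows in the table, 32.4% held it. The match is a description of letters and says nothing of binding.

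In tibialis anterior muscle, Cavin4 and Cavin1 were the most abundant members per length of exon and Cav2 and Cavin3 the least. Levels between genes are given as CPM per kb of exon. The mean over the 8 libraries was 33.9 ± 1.75 (SD) for Cavin4 and 31.8 ± 6.61 for Cavin1. Ehd2 followed at 7.06 ± 1.45 and Cav1 at 6.71 ± 1.76, then Cavin2 at 4.83 ± 0.480 and Cav3 at 4.61 ± 0.745. Cav2 stood at 1.71 ± 0.599 and Cavin3 at 1.47 ± 0.426. Cavin4 and Cavin1 held on average 37.0% and 34.4% of the family's summed level per kb.

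Of the 7 steps between neighbours in this order, 3 were larger than the spread between libraries. Cavin1 exceeded Ehd2 by 2.17 ± 0.28 (SD, n = 8) on the log2 scale, Cav1 exceeded Cavin2 by 0.44 ± 0.28, and Cav3 exceeded Cav2 by 1.49 ± 0.51. Each of these 3 held in 8 of 8 libraries (adjusted P = 0.0182, exact sign-flip permutation test, two-sided, from an unadjusted P of 0.0078, the smallest that 8 libraries allow). The other 4 neighbour pairs did not differ beyond their spread: Cavin4 and Cavin1, Ehd2 and Cav1, Cavin2 and Cav3, and Cav2 and Cavin3 (adjusted P = 0.492 for each, exact test). Their mean log2 differences lay between 0.08 and 0.20. With the length of the longest transcript in place of all exons, Cavin1 lay above Cavin4 by 0.49 and Cav1 above Ehd2 by 0.37 on the log2 scale, so the order within those pairs depended on the length used. By all exons, Cavin4 was above Cavin1 in 4 of 4 VEH libraries and below it in 3 of 4 BAY libraries. By the longest transcript, Cavin4 was below Cavin1 in all 8 libraries, at 0.48 to 0.99 times its level. In the VEH libraries alone, Ehd2 minus Cav1 was −0.09 by all exons.

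The caveolins of muscle followed this pattern within each library. The level of Cav3 per kb was 0.51 to 0.98 times that of Cav1 in every library, with a median of 0.71, or 0.31 to 0.60 times with a median of 0.43 when the longest transcript set the length. Cav1 was 3.27 to 5.57 times Cav2, or 4.56 to 7.77 times by the longest transcript. A whole muscle holds capillaries, nerve and connective tissue beside its fibres, and in a bulk library fewer cells of a type and less RNA per cell cannot be told apart.

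**Figure D1:**
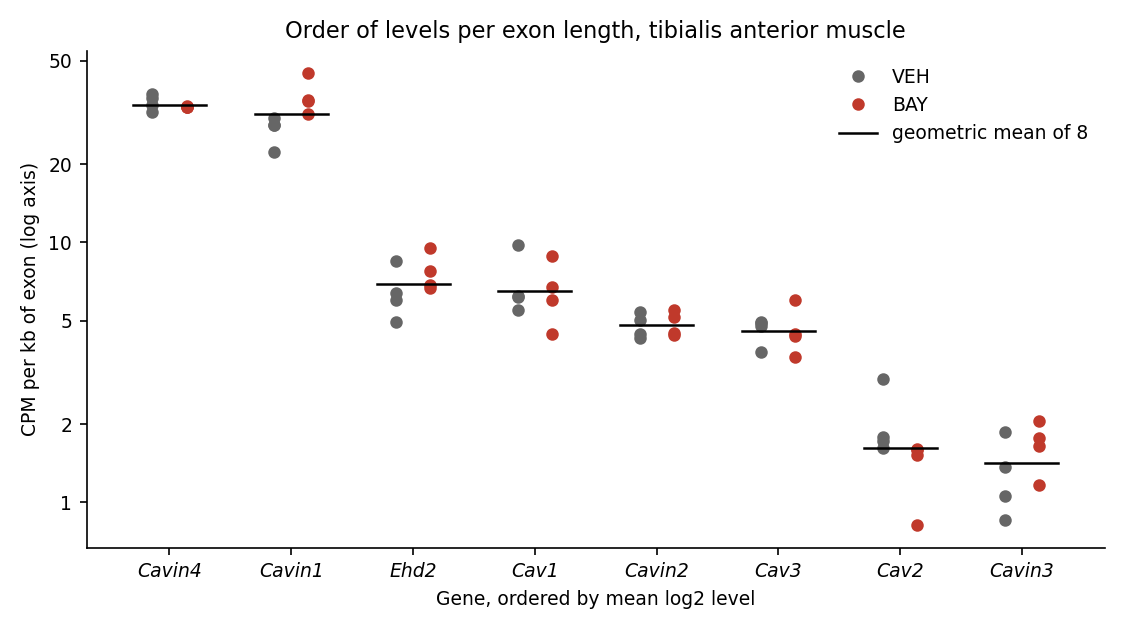
Levels of the 8 members in tibialis anterior muscle, in CPM per kb of exon on a log axis, in order of their mean log2 level. Each point is 1 library (VEH grey, BAY red) and the bar is the geometric mean of 8 libraries. Cavin4 and Cavin1 stand above Ehd2 and Cav1, and Cav2 and Cavin3 are lowest.

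The tissue was checked against its markers. The 12 skeletal muscle fibre genes, among them Ckm and Acta1, summed to 120946 to 153753 CPM in the VEH libraries and 134434 to 202826 CPM in the BAY libraries, and none was at 0 in any library. The 12 endothelial genes summed to 290.2 to 333 CPM with VEH and 326 to 403 CPM with BAY. The 9 adipocyte genes summed to 302 CPM in VEH library 3 against 6.85 to 15.5 CPM in the other 7, and 6 of the 9, Adipoq and Cidec among them, were at 0 in at least 1 library. The 7 fibroblast genes were also highest in VEH library 3, at 212 CPM against 58.3 to 86.0 CPM. That library is the one whose column in the deposited table is named a replacement. Library totals were 6131954 to 9262237 reads on genes.

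BAY against VEH in muscle was examined first for the muscle-type members, which keep the caveolae of the fibre itself. Cavin4 encodes the muscle cavin. It was at 88.0, 96.9, 93.7 and 83.0 CPM in the VEH libraries and at 86.1, 86.1, 87.3 and 86.1 CPM in the BAY libraries. The 4 BAY libraries lay close together and inside the VEH range, and the log2 fold change was −0.06 (SE 0.11). Cav3 encodes the caveolin of muscle fibres. It was at 6.29, 6.13, 6.37 and 4.89 CPM with VEH and at 4.68, 5.71, 7.74 and 5.61 CPM with BAY. The groups overlapped throughout, and the log2 fold change was −0.01 (SE 0.21). Counts behind Cav3 were 34 to 60 reads a library, and the part of counting error in its spread was not tested. Counts were also low for Cav2, at 25 to 119 reads, and for Cavin3, at 22 to 53.

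Among the members made in many cell types, Cavin1 was higher in every BAY library than in any VEH library. It was at 118, 151, 159.7 and 150.3 CPM with VEH and at 187, 166, 186 and 238 CPM with BAY. The means were 145 ± 18.1 and 194 ± 30.6 CPM (SD, n = 4 in each group), and the log2 fold change was 0.42 (SE 0.14), with the mean 34.1% higher. The highest BAY library, number 4, was also the one with the highest summed fibre markers. Across all genes, 4.2% had all BAY libraries above all VEH libraries. After a GC correction described below, the log2 fold change of Cavin1 was 0.16 and its groups overlapped.

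Cav2, the partner of caveolin 1 that does not build caveolae alone, had CPM values below all VEH libraries in every BAY library, by a margin of less than 1 read. It was at 7.68, 6.97, 12.8 and 7.40 CPM with VEH and at 6.88, 6.52, 6.84 and 3.51 CPM with BAY. The gap from 6.88 to 6.97 CPM lay between BAY library 1 and VEH library 2, which both held 50 reads of Cav2, so it came from the library totals alone, and BAY library 3 held 53. The log2 fold change was −0.56 (SE 0.26). VEH library 3 was far above the other VEH libraries and BAY library 4 far below the other BAY libraries. Without VEH library 3, the log2 fold change was −0.36, and without BAY library 4 it was −0.32. Across all genes, 1.53% had all BAY libraries below all VEH libraries.

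Cav1, the principal caveolin of endothelium and fat, overlapped between treatments. It was at 30.7, 27.3, 48.8 and 31.0 CPM with VEH and at 33.6, 30.01, 44.2 and 22.2 CPM with BAY. VEH library 3, the library with the high adipocyte and fibroblast markers, held the highest value, and the log2 fold change was −0.09 (SE 0.21). Without VEH library 3 it was 0.09. Whether the adipocyte and fibroblast markers of that library bear on Cav1 and Cav2 was not tested.

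Ehd2 encodes the neck ATPase. It was at 31.2, 37.9, 53.7 and 40.4 CPM with VEH and at 49.0, 43.4, 60.2 and 42.2 CPM with BAY, with a log2 fold change of 0.27 (SE 0.17). The BAY values began above 3 of the 4 VEH values, and VEH library 3 lay above 3 of the 4 BAY values. The log2 fold change was 0.15 without VEH library 1, 0.16 without BAY library 3 and 0.41 without VEH library 3. Cavin3, which binds protein kinase C delta, was at 3.26, 4.18, 5.72 and 2.62 CPM with VEH and at 3.56, 5.06, 5.41 and 6.31 CPM with BAY. Its log2 fold change was 0.40 (SE 0.28), with overlap, and was 0.22 without VEH library 4 and 0.60 without VEH library 3. Cavin2, which shapes the caveolar membrane, was at 29.6, 30.5, 37.0 and 34.7 CPM with VEH and at 37.7, 30.8, 35.6 and 30.4 CPM with BAY. Those groups overlapped, with a log2 fold change of 0.03 (SE 0.13).

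**Figure D2:**
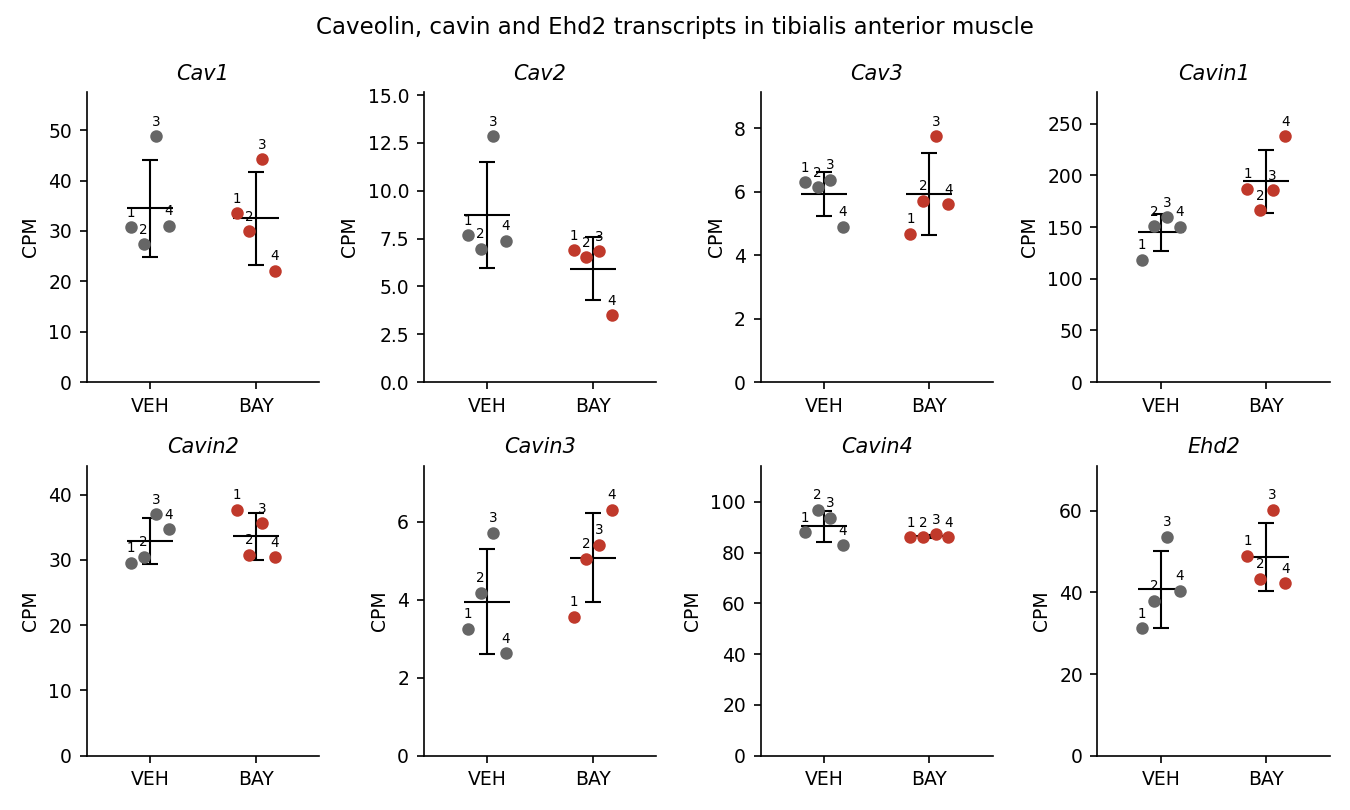
CPM of each member in tibialis anterior muscle, in 1 panel per gene. Points are libraries numbered 1 to 4 within VEH (grey) and BAY (red), and the bars give the group mean ± SD. The BAY points of Cavin1 all lie above the VEH points, those of Cav2 all lie below, the closest by less than 1 read, and the BAY points of Cavin4 lie within 86.1 to 87.3 CPM.

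No member passed the rule for calling a gene, an unadjusted P under 0.05 with a fold change of at least 2 (limma with a mean-variance trend), which 2.43% of all genes passed. One member of 8, Cavin1, had an unadjusted P under 0.05, where 9.79% of all genes did. The median log2 fold change was 0.01 over the 8 members and 0.06 over all genes. It was −0.04 over the 2 muscle-type members and 0.15 over the other 6. Of all 21011 genes, 0 had an adjusted P under 0.05, with 0.184 the smallest, and 2056 had an unadjusted P under 0.05.

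The balance between family members was also read as a ratio within each library, which multiplying a library by 1 factor cannot move. The muscle-type cavin relative to the general one, Cavin4 over Cavin1 per kb, was 1.13 to 1.52 in the VEH libraries and 0.74 to 1.06 in the BAY libraries, without overlap. Cav1 over Cav2 was 3.27 to 3.61 with VEH and 3.96 to 5.57 with BAY, also without overlap. Cav3 over Cav1 overlapped, at 0.51 to 0.87 with VEH and 0.54 to 0.98 with BAY. Cavin4 over Cav3, the ratio of the muscle-type pair, overlapped too, at 6.91 to 8.38 and 5.57 to 9.09. These ratios rest on the same values as the differences above, and no share of gene pairs without overlap was computed. In log2 terms, Cavin4 over Cavin1 differed by −0.48 between treatments, and by −0.22 with overlap after the GC correction described next. Cav1 over Cav2 differed by 0.47, and by 0.36 without overlap after that correction.

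The differences in muscle moved with the base composition of the transcript. Over 11204 protein-coding genes, the log2 fold change had a Pearson r of 0.42 with the GC content of the longest transcript. This r is across genes, which share the same 8 libraries and are not independent replicates. From the decile of genes with the lowest GC content to the decile with the highest, the median log2 fold change went from −0.20 to 0.30. The deviations of single libraries from the gene means had an r with GC content of −0.24 to −0.04 in the VEH libraries and 0.11 to 0.37 in the BAY libraries, with the highest value in BAY library 4.

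The members spanned this range. Cav2 was the member with the lowest GC content, at 39.4%, and genes within 1 percentage point of it had a median log2 fold change of −0.20. Cavin1 was the highest at 57.3%, and genes near it had a median of 0.25. Ehd2 at 54.4% had neighbours at 0.18, and Cav3 at 55.7% had neighbours at 0.22. After a correction for GC content within each library, chosen after the data were seen, the log2 fold change of Cavin1 was 0.16 (SE 0.10) and its groups overlapped. That of Cav2 was −0.35 (SE 0.19), again with overlap, and Ehd2 was at 0.07, Cav3 at −0.23, Cavin2 at 0.22 and Cav1 at 0.01. After this correction, 0 members of 8 had an unadjusted P under 0.05, where 8.68% of all genes did.

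**Figure D3:**
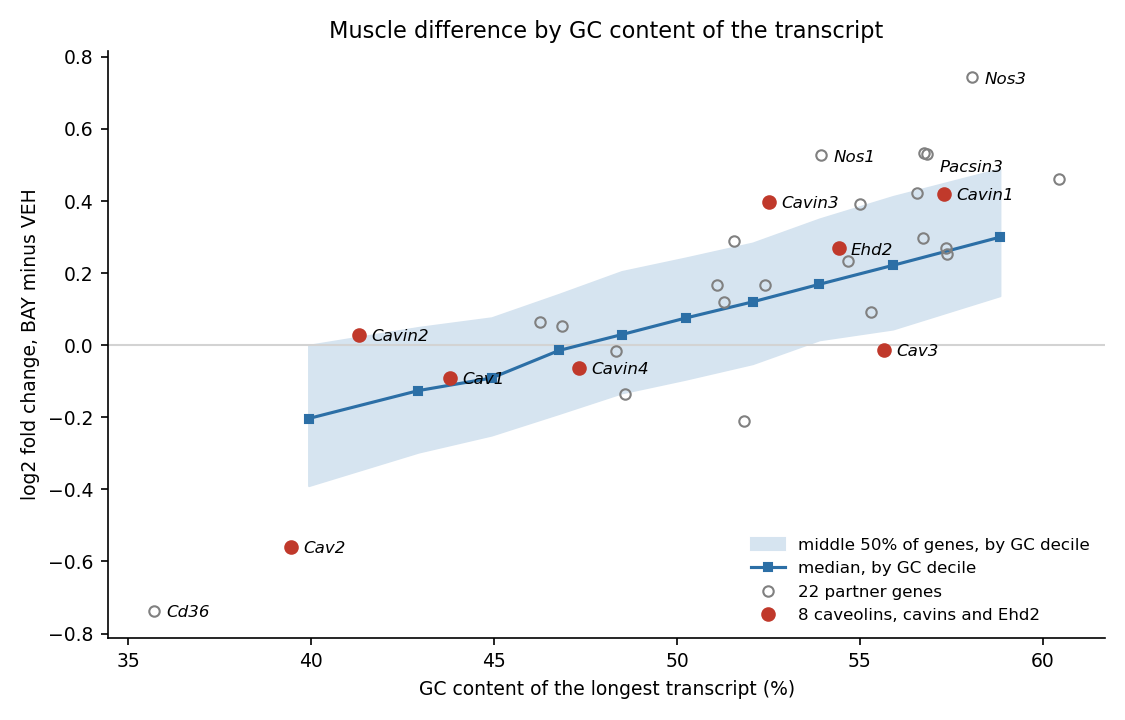
Log2 fold change of BAY against VEH in tibialis anterior muscle by GC content of the longest transcript. The line gives the median of 11204 protein-coding genes by GC decile and the band their interquartile range, red points are the 8 members and open circles 22 of the 23 partner genes (Pacsin1, with few reads, is left out). The line rises with GC content. Cav2, at 39.4% GC and −0.56, lies below the line and the band there, and Cavin1, at 57.3% GC and 0.42, lies above the line.

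The proteins that work with caveolae were followed in a list of 23 partner genes. In muscle, 7 of 23 were higher with BAY at an unadjusted P under 0.05 and 1 was lower, against 6.71% and 3.07% of all genes. The list's median log2 fold change was 0.25, against 0.06 for all genes. No partner had an adjusted P under 0.295 or passed the calling rule. After the GC correction the counts were 2 higher and 1 lower, against 4.39% and 4.29% of all genes, and the median was 0.07. With a library left out, 4 (without VEH library 1 or VEH library 4) to 8 were higher, and 0 or 1 lower. Of all 21011 genes, 918 and 1221 were higher in those fits with 4 partners. In the fits with 8, without VEH library 3 or BAY library 2, 1712 and 1352 of all genes were higher. With a library left out, 346 to 806 of all genes were lower. Without a variance trend, 3 partners were higher (Nos1, Nos3 and Pacsin3) and 0 lower, against 1155 and 493 of all 21011 genes. Most vessel markers were higher with BAY: 10 of 12 endothelial genes and 6 of 8 mural genes had a log2 fold change above 0. The medians were 0.16 and 0.27, where that of all genes was 0.06. At an unadjusted P under 0.05, 5 endothelial and 2 mural genes were higher and none was lower. The endothelial genes below 0 were Kdr (a receptor for vascular endothelial growth factor) at −0.24 and Pecam1 (an endothelial junction protein) at −0.02. The mural genes below 0 were Acta2 (smooth muscle actin) at −0.18 and Rgs5 at −0.07. After the GC correction, 9 of 12 endothelial genes were above 0 with a median of 0.15, and 1 was higher and 1 lower at that P. The part of vessel transcripts in the partner values was not tested.

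The nitric oxide synthases, which bind caveolins, were among them. Nos3, the endothelial enzyme, was at 6.05, 8.37, 5.83 and 5.61 CPM with VEH and at 13.9, 9.62, 10.8 and 8.98 CPM with BAY. The groups did not overlap, with a log2 fold change of 0.74 (SE 0.20; adjusted P = 0.295, limma). After the GC correction it was 0.46 and the groups overlapped, with an unadjusted P still under 0.05. Nos1, the enzyme of the fibre membrane, was at 184, 215, 135 and 208 CPM with VEH and at 243, 277, 290.1 and 246 CPM with BAY. Again the groups did not overlap, with a log2 fold change of 0.53 (SE 0.15; adjusted P = 0.319, limma). After the GC correction it was 0.34, with overlap, and its unadjusted P was no longer under 0.05. Of all genes, 4.2% had BAY libraries wholly above the VEH libraries.

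Pacsin3, the muscle form of the F-BAR proteins that bend the caveola neck, was at 88.7, 120.3, 85.9 and 96.1 CPM with VEH and at 144, 131, 122 and 168 CPM with BAY. It did not overlap either, with a log2 fold change of 0.53 (SE 0.14; adjusted P = 0.295, limma), but it was 0.28 and overlapped after the GC correction. Its unadjusted P was then still under 0.05, and Nos3 and Pacsin3 were the 2 higher partners in the corrected count. Pacsin2 was at 0.29, Dnm1 (dynamin 1) at 0.53, Flot1 (flotillin 1) at 0.42 and Dysf (dysferlin, a membrane repair protein) at 0.39 on the log2 scale, each with overlap between groups. After the GC correction they were at 0.18, 0.29, 0.18 and 0.19, none with an unadjusted P under 0.05. Dysf was at 0.25 without VEH library 3. An unadjusted P under 0.05 was also lost for Pacsin2 without VEH library 1, 2 or 4 or BAY library 3 or 4, for Dnm1 without VEH library 1 or 4 or BAY library 1 or 3, for Flot1 without VEH library 1 or 4 or BAY library 4, and for Dysf without VEH library 3 or BAY library 1 or 3. All 4 lost it without a variance trend, Pacsin2 and Dysf with median centring, and Pacsin2 also with log2(CPM + 1), the filter at a mean of 1 CPM and voom. Cd36, the fatty acid translocase of caveola-rich membranes, was the lowest of the list. It was at 60.1, 48.5, 118 and 58.4 CPM with VEH and at 46.0, 48.3, 52.1 and 22.4 CPM with BAY, a log2 fold change of −0.74 (SE 0.28; adjusted P = 0.426, limma). It was −0.47 without VEH library 3 and −0.46 without BAY library 4, and neither then had an unadjusted P under 0.05, nor did it without a variance trend. As for Cav2, VEH library 3 was highest and BAY library 4 lowest, and both genes are GC-poor, Cd36 at 35.7%. After the GC correction Cd36 was at −0.53 (SE 0.20; adjusted P = 0.515, limma), with an unadjusted P still under 0.05 and with overlap, and it was the 1 lower partner in the corrected count. The highest by log2 fold change was Pacsin1, at 2.23 (SE 3.95), with 0 to 0.421 CPM.

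**Figure D4:**
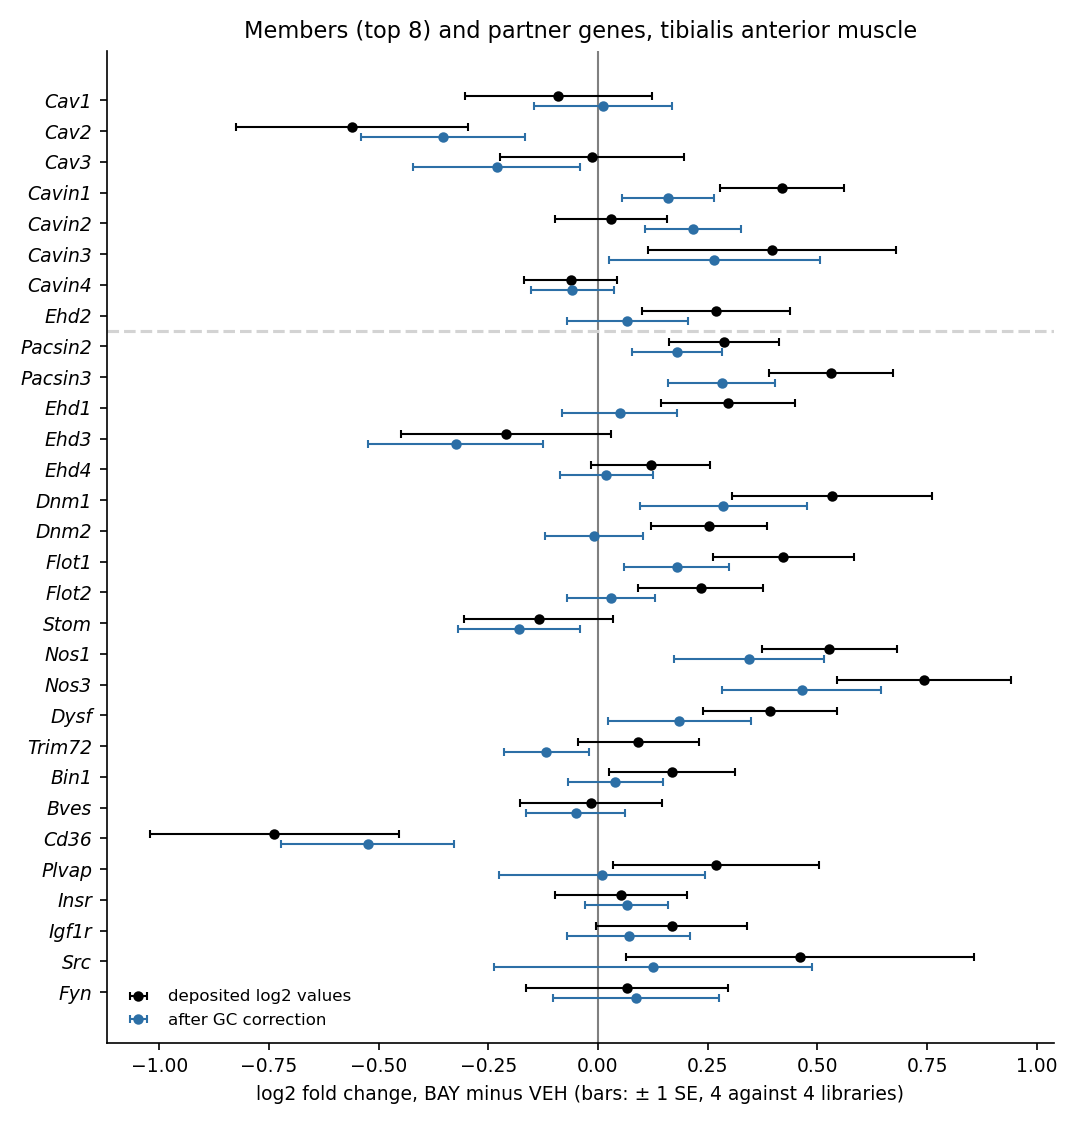
Log2 fold change of BAY against VEH in tibialis anterior muscle for the 8 members (above the dashed line) and 22 of the 23 partner genes, with bars of 1 SE (4 against 4 libraries). Black points are from the deposited values and blue points from values corrected for GC content. Cavin1 moves from 0.42 to 0.16 and Cav2 from −0.56 to −0.35 with the correction.

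Member levels were set against 3 marker lists across the 8 muscle libraries, in 24 relations. Libraries of both treatments entered together, here and in bone, so r and P also hold any difference between treatments. None of the 24 had an adjusted P under 0.05, and 3 had an unadjusted P under 0.05, all by exact permutation of Pearson's r. With deviations from the group means, none had an adjusted P under 0.05 either. Cavin3 was higher where the fibre genes were higher (r = 0.79, P = 0.0187, adjusted P = 0.341; Spearman's rho = 0.83, P = 0.0154, adjusted P = 0.369; exact permutation tests, n = 8), with r = 0.57 without the 2 libraries farthest from the median. Cavin1 was also higher where the fibre genes were (r = 0.73, P = 0.0427, adjusted P = 0.341; rho = 0.62, P = 0.115, adjusted P = 0.690; exact permutation tests), with r = 0.67 without those 2 libraries. Ehd2 with the endothelial genes gave r = 0.73 (P = 0.0407, adjusted P = 0.341; rho = 0.57, P = 0.151, adjusted P = 0.725; exact permutation tests). Its size depended on the libraries included: r was −0.23 without VEH library 1 and BAY library 3, the 2 farthest from the median, and 0.97 without VEH library 3 alone. Cav1 and the endothelial genes had an r of 0.18.

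Among the 28 pairs of members in muscle, r across 8 libraries ran from −0.61 to 0.81 with a median of 0.26, and 9 pairs were negative, all with no test. The ends were Cav2 with Cavin1 and Cav1 with Cav2. Cav1 had an r of 0.73 with Cavin2, 0.68 with Ehd2 and −0.21 with Cavin1. Of all compared genes, 5% had an r with Cav1 above 0.78. Of 5559 genes that averaged 10 CPM or more, those with the pattern most like Cav1 were Rgs5 (r = 0.97), a regulator of G protein signalling in pericytes, Nrp1 (0.96), a co-receptor for vascular endothelial growth factor, Tcf12 (0.95), Fbxw2 (0.95) and Slc25a3 (0.94). For Cav3 they were P2ry2 (0.93), a receptor for extracellular nucleotides, Tmem52 (0.90), Ankrd44 (0.83), Aar2 (0.82) and Srxn1 (0.81). The median r over all compared genes was 0.23 with Cav1 and 0.14 with Cav3.

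In cortical bone the same 8 genes were measured at lower depth, with 930305 to 6951688 reads on genes in a library. Levels here are within the bone table and are set beside muscle as values, with no test between the tables. Cavin1 was the highest member per kb, at 21.5 ± 9.13 CPM per kb (SD, n = 8), and Cav3 the lowest at 2.80 ± 2.17. Cavin4, at 8.87 ± 5.29, did not stand with Cavin1 as it did in muscle, and the other 5 lay between 4.2 and 5.59. Of the 7 steps between neighbours, 0 had an adjusted P under 0.05 by the exact sign-flip test. The first step, Cavin1 over Cavin4 (log2 difference 1.40 ± 1.37, n = 8, exact P = 0.0391, adjusted P = 0.137), and the last, Cav2 over Cav3 (1.11 ± 1.23, exact P = 0.0313, adjusted P = 0.137), had an unadjusted P under 0.05.

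These levels were set beside the olfactory receptor genes of the same library, a large family that bone is not known to use. The 1113 olfactory receptor genes of the bone table were at 0.131, 7.44, 1.39 and 5.76 CPM per kb in the VEH libraries and at 3.10, 2.62, 2.64 and 8.98 CPM per kb in the BAY libraries. The muscle table held 39 such genes, at 0.111 to 0.160 CPM per kb. In muscle, every member was 6.36 to 402 times this level in every library. In bone VEH library 1, 7 of 8 members were more than 10 times the level, with Cav3 at 1.71 times. In VEH libraries 2 and 4 and BAY library 4, 2 of 8 members were above it and none was above 3 times.

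Cavin1 and Cavin4 were above that level in 7 of 8 bone libraries each. Cavin1 was more than 3 times the level in 5 libraries, with a median multiple of 8.18. Cavin4 was so in 3 libraries, Cavin3 and Ehd2 in 2, Cav1, Cav2 and Cavin2 in 1 and Cav3 in none. For Cav3, 2, 8, 2 and 2 reads were counted in the VEH libraries and 8, 8, 9 and 7 in the BAY libraries. At the olfactory receptor level its exons would have held 1.17, 10.4, 5.05 and 10.2 reads with VEH and 8.92, 8.15, 6.68 and 10.8 reads with BAY. A level of Cav3 in bone above that of the olfactory receptor genes was not detectable at this depth, and no fold change is given for it.

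**Figure D5:**
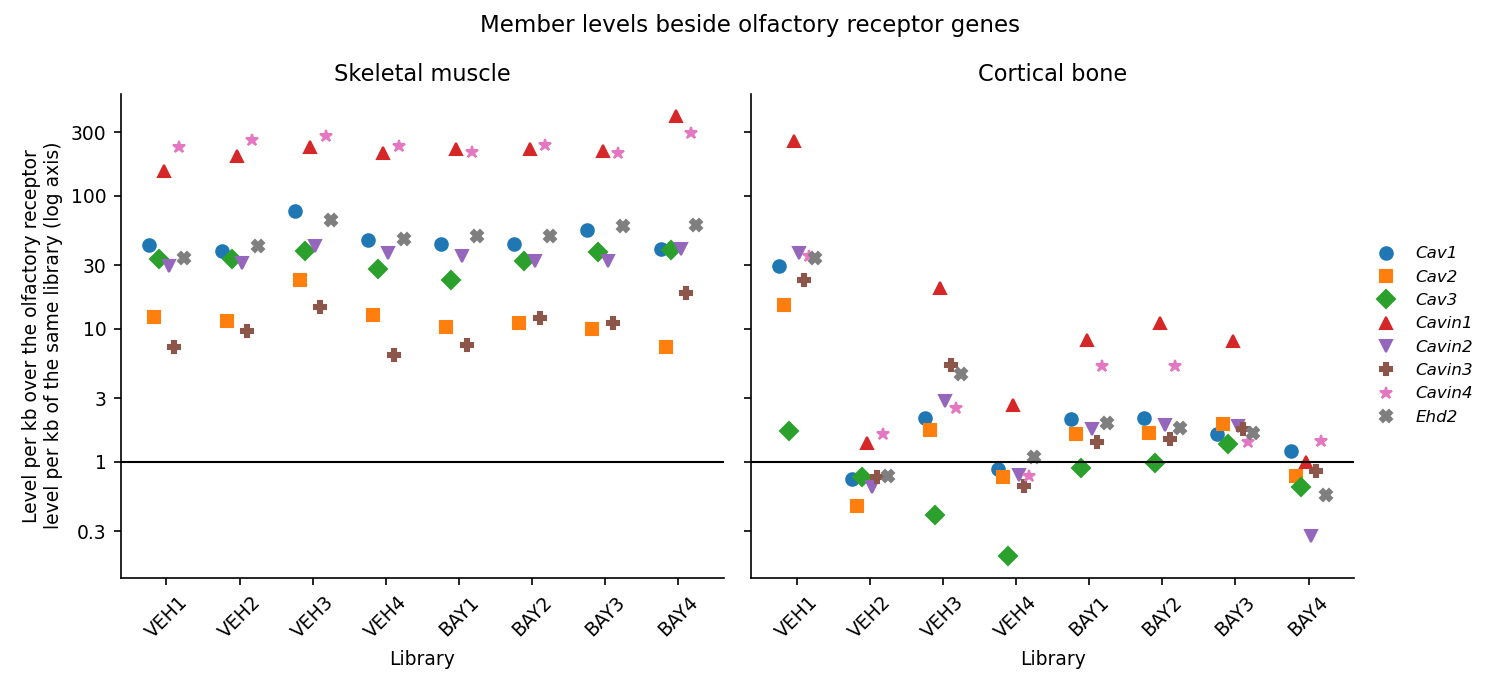
Level of each member per kb divided by the level of the olfactory receptor genes per kb in the same library, on a log axis, for muscle (left) and cortical bone (right). The black line marks equal levels. All members stand at least 6.36 times above it in muscle, while in bone VEH libraries 2 and 4 and BAY library 4 no member reaches 3 times.

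The bone libraries differed in what tissue they held. The 12 fibre genes summed to 74.98 to 10485 CPM in the VEH libraries and 158 to 42883 CPM in the BAY libraries, with the highest sums in BAY libraries 1 and 2. The 8 osteoblast and osteocyte genes summed to 247 to 5272 CPM with VEH and 194 to 2746 CPM with BAY, and the fibre sum was above the osteoblast sum in 4 of 8 libraries. None of the 8 bone genes was at 0 in any library, and of the fibre genes Tnnt3 and Actn3 were at 0 in at least 1.

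Between treatments in bone, Cavin4 was at 11.9, 31.3, 9.21 and 11.6 CPM with VEH and at 42.5, 35.6, 9.68 and 33.3 CPM with BAY. BAY libraries 1 and 2, the 2 with the most fibre transcripts, held the highest values, and the groups overlapped. VEH library 1, with 10485 CPM of fibre genes, had Cavin4 at 11.9 CPM, 35.0 times the olfactory receptor level. VEH library 2 and BAY library 4, with 333 and 158 CPM of fibre genes, had it at 31.3 and 33.3 CPM, which was 1.61 and 1.42 times that level. The log2 fold change was 0.90 (SE 0.71), and the median over all genes of this table was 0.84. Cavin4 was at 0.05 with each library centred on its median and at 0.36 with the GC correction, where the median of all genes was 0.29. With a library left out it ran from 0.67 (without BAY library 1) to 1.38 (without BAY library 3), and without VEH library 1 it was 0.82 beside a median of −0.09 for all genes. The part of fibre transcripts in the Cavin4 values was not tested.

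Cavin1 was at 179, 55.2, 149 and 81.5 CPM with VEH and at 135, 155, 115 and 47.3 CPM with BAY. Its groups overlapped, with a log2 fold change of −0.02 (SE 0.59). This was −0.87 with median centring and −0.36 with the GC correction, and ran from −0.33 (without VEH library 2) to 0.36 (without BAY library 4). The lowest values were those of VEH library 2 and BAY library 4, the 2 with the highest olfactory receptor level. Cav1 was at 19.4, 27.6, 14.9 and 25.5 CPM with VEH and at 32.6, 28.1, 21.4 and 53.7 CPM with BAY, a log2 fold change of 0.59 (SE 0.58), or 0.35 without BAY library 4. Cav2 was at 8.49, 14.7, 10.3 and 18.9 CPM with VEH and at 21.5, 18.6, 21.9 and 30.1 CPM with BAY, a log2 fold change of 0.86 (SE 0.62). Its VEH library 4 lay just above its lowest BAY library. The median over all genes was 0.84. With each library centred on its median, Cav1 was at −0.26 and Cav2 at 0.01, and with the GC correction they were at 0.03 and −0.03.

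Cavin2 was at 33.5, 33.1, 27.6 and 31.3 CPM with VEH and at 37.5, 34.3, 33.6 and 17.2 CPM with BAY, and only BAY library 4 stood apart from the others. Ehd2 was at 28.2, 36.8, 40.0 and 39.3 CPM with VEH and at 38.4, 29.8, 27.5 and 32.2 CPM with BAY. Cavin3 was at 9.35, 17.5, 22.6 and 11.6 CPM with VEH and at 13.4, 11.9, 14.3 and 23.6 CPM with BAY. The groups of all 3 overlapped, with log2 fold changes of −0.09 (SE 0.54), −0.17 (SE 0.51) and 0.08 (SE 0.66). With median centring they were −0.94, −1.02 and −0.77, and with the GC correction −0.79, −0.61 and −0.39. Cavin2 was at 0.17 without BAY library 4, and Cavin3 ran from −0.13 (without BAY library 4) to 0.30 (without VEH library 3). Of the 8 members, 0 had an unadjusted P under 0.05 in bone, where 0.64% of all genes did, and the calling rule gave the same 0.64%. No member had groups without overlap, as 0.406% of all genes did. Of all genes, 0 had an adjusted P under 0.05 in bone (limma), with 249 at an unadjusted P under 0.05.

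None of the 23 partner genes had an unadjusted P under 0.05 in bone, where 0.64% of all genes did. The count was 1 with voom (3.72% of all genes), 1 without VEH library 1 (0.673%) and 2 without VEH library 2 (2.87%). The median log2 fold change of the partners was 0.06, where that of all genes was 0.84. Without VEH library 1 the medians were −0.20 and −0.09. The highest was Bves (popeye domain protein of the muscle membrane) at 1.70 (SE 1.13; adjusted P = 0.887, limma) and the lowest Fyn, a membrane-bound kinase, at −0.55 (SE 0.73; adjusted P = 0.887, limma). Bves was at 0.85 with median centring and 0.81 without VEH library 1, and Fyn at −1.40 with median centring and −0.17 without BAY library 1.

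Across the 8 bone libraries, 0 of 24 relations between members and marker lists had an adjusted P under 0.05, and 3 had an unadjusted P under 0.05 by exact permutation of r. The strongest was Cavin1, which was lower where adipocyte transcripts were higher (r = −0.83, P = 0.00357, adjusted P = 0.0857; rho = −0.93, P = 0.00223, adjusted P = 0.0536; exact permutation tests, n = 8), with r = −0.93 without VEH libraries 1 and 2. Cavin1 also ran against the endothelial genes (r = −0.78, exact permutation P = 0.0194, adjusted P = 0.155; rho = −0.83, P = 0.0154, adjusted P = 0.123), with r = −0.78 without the 2 farthest libraries. The third involved Cav3, which had 2 to 9 reads a library in bone and never reached 3 times the olfactory receptor level, and it is not described further. The adipocyte genes summed to 209 CPM in VEH library 2 and 161 CPM in BAY library 4, the 2 libraries with the highest olfactory receptor level, and the part of that level in these relations was not tested.

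Over 16984 bone genes that averaged 10 CPM or more, the median r with Cav1 was 0.60, so a high r is common in these libraries. The genes most like Cav1 were Pla2g12a (0.98), Rpap2 (0.98), Rdh14 (0.94), Gm5891 (0.93) and Mpdz (0.93). None is given for Cav3, because of its 2 to 9 reads a library.

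In the mouse genome (mm39, the build of the files), Cav1 and Cav2 lie next to each other on the plus strand of chromosome 6, at 17306334 to 17341451 and 17281184 to 17289114, and Cav3 lies farther along the same chromosome at 112436466 to 112449833. Cavin1 lies on chromosome 11 at 100847559 to 100861713, Cavin2 on chromosome 1 at 51328285 to 51342119, Cavin3 on chromosome 7 at 105129290 to 105131507, Cavin4 on chromosome 4 at 48663514 to 48673502 and Ehd2 on chromosome 7 at 15680883 to 15701492.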

How the data were processed

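Bulk RNA-seq of 8 muscle and 8 bone libraries was used. The authors aligned reads with STAR 2.7.8a to mm39 in Partek and deposited, per tissue, log2 values of CPM plus an offset (0.0004 in muscle, 0.0001 in bone), with no filter beyond at least 5 reads over 8 libraries. The log2 values were returned to CPM. Steps between low values gave library totals, and 81.3% to 88.5% of low values were whole reads within 0.02. limma 3.58.1 (lmFit, eBayes with trend; R 4.3.3) was run on all genes of each table. Exon lengths, GC content and coding sequence came from GENCODE M39 and promoters from RefSeq. Correlations used log2(CPM + 1). The limma script was tested on simulated data. Members and lists were chosen with earlier results of these data known. All members are named, with partners at an unadjusted P under 0.05 or at either extreme of log2 fold change and the 5 genes most like Cav1 and Cav3. Alternatives were another offset, filter, scaling, variance model, weights (voom), replicate block and each library left out, and, added after the data were seen, a GC correction and the olfactory receptor level. Replicate numbers were not treated as pairs in the main fit. Python 3.11.15 with scipy 1.17.1 ran the exact tests. Every column of per-sample values was mapped to a sample.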

Additional observations from a re-analysis of the deposited data

Results flagged for a closer look

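Within a group of 4, 6 of the 32 member groups held a library far from the other 3. The rule marks about 1 in 20 independent groups by chance. The 32 groups share libraries and are not independent, so the 6 are a description only. Each of the 6 is given as the gap to the nearest library divided by the range of the group. In muscle, Cav2 had VEH library 3 high (0.879) and BAY library 4 low (0.894), Cav3 had VEH library 4 low (0.841), and Cavin4 had BAY library 3 high (0.9753) within a range of only 86.1 to 87.3 CPM. In bone, VEH library 2 was high for both muscle-type members, Cav3 (0.835, from 8 reads) and Cavin4 (0.877, from 34 reads). Those levels were 0.77 and 1.61 times that of the olfactory receptor genes in the same library, so the Cav3 value was not above that level and neither reached 3 times it.

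For Cav2, all 4 BAY libraries lay below the VEH mean in muscle (log2 fold change −0.56) and all 4 above it in bone (0.86), which met the condition for a difference between tissues. The bone value lay 0.02 above the median of all genes in that table, and it was 0.01 with median centring and −0.03 with the GC correction. Cav2 was over 3 times the olfactory receptor level in 1 of 8 bone libraries. The difference between tissues was not tested, because the tables were normalized separately.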

How the results depend on the processing

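In muscle the 510 called genes became 52 with log2(CPM + 1) and 193 with a filter at a mean of 1 CPM, and in bone the 249 became 82 with that filter, 443 with median centring, 408 without a variance trend, 1448 with voom and 458 with the GC correction. With a library left out, the counts ran from 448 to 567 in muscle and from 115 to 1116 in bone, the latter without VEH library 2. The replicate block gave 489 and 305. Same-numbered libraries had correlations of −0.09 to 0.01 in muscle and −0.11 to 0.19 in bone. The same-numbered library was the best partner for replicates 3 and 4 in bone and for none in muscle. Such values cannot show whether the numbers mark pairs, and the main fit used no pairing. In muscle, 1 member had an unadjusted P under 0.05, against 2 with log2(CPM + 1), the filter, median centring, voom and the replicate block (Cavin1 and Cav2 in each), 0 with the GC correction and 1 to 3 with a library left out. The 3 were Cavin1, Cavin3 and Ehd2, without VEH library 3. Of all genes, 9.79% had such a P, 8.46% to 12.8% in those 5 fits, 8.68% with the GC correction and 7.02% to 10.3% with a library left out (9.79% without VEH library 3). In bone the count was 0 throughout. Of the muscle log2 fold changes, Cavin1, Cav2, Cavin3, Cavin4 and Ehd2 had the same sign in 15 of 15 alternatives, and Cav1 turned in 3, Cav3 in 5 and Cavin2 in 4. Among those 15, the filter, the fit without a variance trend and the replicate block left each log2 fold change as it was and could not turn a sign. With the longest transcript as the length, 5 of 7 neighbour steps in muscle passed in place of 3. VEH libraries alone cannot pass (smallest exact P 0.125). Relations with marker lists that passed the adjusted threshold ranged from 0 to 2 in muscle (Cav2 with fibre genes, r = −0.94, and Ehd2 with endothelial genes, r = 0.97, both without VEH library 3) and from 0 to 1 in bone (Cav3 with adipocyte genes without VEH library 4, on 2 to 9 Cav3 reads a library). The causes were not tested.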
